A study of Mus musculus with 6 samples.

Results

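The calpain genes Capn1, Capn2, Capn7 and Capn10, the small-subunit gene Capns1, the calpastatin gene Cast and a pair of antisense genes on chromosome 19, Frmd8os and Gm14966, were followed in the RNA of transplanted hematopoietic stem and progenitor cells (HSPCs). They are 8 of 24965 genes listed by Ensembl identifier. The set was chosen by the measured FPKM values of the same comparison, for the high Capn1 of cells lacking Hemgn, and the antisense genes were added as neighbours of Capn1. The differences between genotypes given below for these 8 genes are therefore descriptions, and no test of them is reported.

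Donor bone marrow cells carrying CD45.2, 20000000 for each transplantation, went into CD45.1+ recipients that had received 9 Gy of radiation in doses of 4.5 Gy, and donor HSPCs were recovered 6 h post-BMT (bone marrow transplantation). The WT group held 3 libraries and the Hemgn-/- group 3, from C57BL/6 mice of 8 to 10 weeks, with WT littermates as the controls. The Hemgn allele was disrupted in the germline with zinc finger nucleases, so every Hemgn-/- donor cell lacked it, and the donor cells of both genotypes had been through transplantation into an irradiated host. The sample labels define the cells as lineage-negative and Sca-1-positive, whereas the design text and the methods add c-Kit (LSK cells).

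Calpains are cysteine proteases of the cytosol that cut a limited number of bonds in their substrates when calcium rises. The classical enzymes, mu-calpain and m-calpain, pair a catalytic subunit, encoded by Capn1 or Capn2, with a common small subunit encoded by Capns1, and calpastatin, encoded by Cast, is their dedicated inhibitor. In blood cells mu-calpain is known for cutting cytoskeletal and adhesion proteins in platelets, red cells and migrating leukocytes. Capn7 and Capn10 are non-classical calpains that do not need the small subunit, and calpastatin is not known as their inhibitor.

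Capn1 (ENSMUSG00000024942) lies on the minus strand at chr19:5988545-6015897 of GRCm38, by GENCODE M21. The bases upstream of a RefSeq start site of Capn1 (chr19:6015825) are given with those of Capn2 and Capns1, its close relative and its partner. All 3 genes serve the classical enzymes, while their RNA levels took different courses in Hemgn-/- HSPCs. For a further Capn1 start site (chr19:6015247) no stretch is printed. Annotated exon bases were left out, so the stretches end at positions −73 (Capn1), −1 (Capn2) and −12 (Capns1) from the start site. The sequences are those of RefSeq on GRCm38.p6, cover chr19:6015898-6016075 for Capn1, chr1:182517611-182517860 for Capn2 and chr7:30195165-30195403 for Capns1, and read 5′ to 3′ on the minus strand on which these genes are transcribed. Capitals mark a CCAAT box (CCAAT, or ATTGG on the other strand) or a GC box (GGGCGG).
Capn1: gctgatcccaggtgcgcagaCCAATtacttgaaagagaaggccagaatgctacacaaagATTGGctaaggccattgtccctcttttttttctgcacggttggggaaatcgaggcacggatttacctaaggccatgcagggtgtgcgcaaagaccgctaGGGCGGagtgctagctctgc
Capn2: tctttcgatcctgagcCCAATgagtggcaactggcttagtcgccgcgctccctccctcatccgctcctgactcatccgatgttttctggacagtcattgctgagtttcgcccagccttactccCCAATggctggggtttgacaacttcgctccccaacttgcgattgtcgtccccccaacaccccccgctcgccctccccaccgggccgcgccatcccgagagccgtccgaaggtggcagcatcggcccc
Capns1: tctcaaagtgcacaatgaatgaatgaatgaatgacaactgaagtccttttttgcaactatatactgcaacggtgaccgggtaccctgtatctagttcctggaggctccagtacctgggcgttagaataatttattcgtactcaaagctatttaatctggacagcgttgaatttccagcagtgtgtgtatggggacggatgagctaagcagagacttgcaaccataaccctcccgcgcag
The Capn1 stretch holds a GC box and 2 CCAAT boxes, the Capn2 stretch 2 CCAAT boxes, and the Capns1 stretch no match to either. RefSeq gave promoter windows of 300 bases, 250 before and 50 after the start site, for 7 of the 8 genes, 11 windows in all. On both strands, CCAAT occurred in 8 of these 11 windows and in 37.4% of 32851 windows genome-wide, and GGGCGG in 6 of 11 and 35.7%. The STAT site TTCNNNGAA occurred in 1 window, of Cast, against 8.30% of all windows, and in no window of Capn1. The GATA site AGATAA occurred in 1 window, against 11.2%. That window belongs to the further Capn1 start site, so the site is not in the printed stretch. Neither the interferon-stimulated response element, searched as GAAA and GAAA with any 2 bases between them (3.44% of all windows), nor the ETS site CCGGAAGT (3.89%) occurred in any of the 11, and matches of different motifs did not overlap. The Capn1 window whose upstream bases are printed had a GC content of 59.3% with 15 CG pairs, where the medians of all windows were 52.7% and 7.

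Levels are given as FPKM, fragments per kilobase of exon and per 1000000 fragments, as deposited by the authors. The libraries held between 23668015 and 28897360 fragments, worked out from the spacing of low FPKM values. Differences are Hemgn-/- minus WT on the log2(FPKM + 1) scale, on which changes of low genes come out too small. Genes above 1 FPKM in at least 1 library were tested with limma (13739 genes, all 8 members among them), and a gene was called at an adjusted p under 0.05 by Benjamini-Hochberg over all genes tested. At this rule 6.46% of all genes tested were called, 600 of them (4.37% of all) higher and 287 (2.09%) lower in Hemgn-/- HSPCs, and the median difference of all genes tested was 0.087. The split depended on scaling, with 341 higher and 386 lower after median-ratio scaling, 368 and 346 after quantile normalization and 1049 and 238 with equal FPKM totals. The total of 887 calls was 470 or 494 when WT replicate 1 or 3 was dropped, and 525 or 373 when Hemgn-/- replicate 2 or 3 was.

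Capn1 was at 3.17, 3.14 and 2.97 FPKM in WT replicates 1, 2 and 3 and at 28.1, 31.3 and 29.4 FPKM in Hemgn-/- replicates 1, 2 and 3. Every Hemgn-/- library was far above every WT library, and within each genotype the libraries lay close together, with a coefficient of variation of 3.32% in WT and 5.39% in Hemgn-/- HSPCs. These values rest on 251, 268 and 276 fragments in WT and on 2579, 2738 and 2845 in Hemgn-/- libraries. The means were 3.09 ± 0.103 FPKM (SD, n = 3) and 29.6 ± 1.60 FPKM (SD, n = 3), a ratio of 9.58 and a log2 difference of 2.90 (standard error 0.095). Capn1 was thereby 6th from the top of 13739 genes by log2 difference, and 2nd among 10490 protein-coding genes, below Tpm3-rs7. Its level lay at percentile 42.8 of the genes tested in WT and at percentile 88.1 in Hemgn-/- HSPCs.

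Capn1 shares 394 exon bases, 11.8% of its own, with Gm10814 on the opposite strand, and whether the counting used strand is not given in the sources used here. Gm10814 averaged 0.376 ± 0.0612 FPKM in WT cells and 0.402 ± 0.172 FPKM without Hemgn (SD, n = 3 each), on 11 to 28 fragments a library. Of 3378 stretches of 50 bases in Capn1 transcripts, 209 (6.19%) also occur in transcripts of other genes, mostly of Gm10814. The other members share exon bases with opposite-strand genes too. The shares were 27.1% for Capn2 (Gm37885), 14.7% for Capn10 (9430060I03Rik), 8.16% for Capns1 (Gm26810), 7.27% for Cast (Erap1) and 2.37% for Capn7 (Sh3bp5). Those of Frmd8os and Gm14966 are given below.

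Capn2, the catalytic subunit of m-calpain (chr1:182467260-182517608, minus strand), was at 6.25, 8.99 and 7.60 FPKM in WT and at 11.4, 9.28 and 7.77 FPKM in Hemgn-/- libraries. The groups overlapped, since Hemgn-/- replicate 3 lay within the WT range. The means were 7.62 ± 1.37 and 9.49 ± 1.84 FPKM (SD, n = 3 each), a log2 difference of 0.28 (standard error 0.16). Capn2 was thus the higher of the classical catalytic genes in every WT library and the lower in every Hemgn-/- library. The ratio of Capn1 to Capn2 was 0.506, 0.349 and 0.391 in WT and 2.46, 3.37 and 3.79 in Hemgn-/- libraries.

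Capns1, the small subunit that both classical enzymes need for stability (chr7:30186936-30198811, minus strand), was at 8.60, 8.33 and 7.14 FPKM in WT and at 7.36, 4.80 and 5.78 FPKM in Hemgn-/- libraries. Hemgn-/- replicates 2 and 3 were below all WT libraries and replicate 1 lay among them. The means were 8.02 ± 0.777 and 5.98 ± 1.29 FPKM (SD, n = 3 each), a log2 difference of −0.38 (standard error 0.15). The subunit RNA thus did not follow the catalytic RNA upward. There were 0.368, 0.376 and 0.417 units of Capn1 FPKM for each unit of Capns1 in WT libraries, and 3.82, 6.52 and 5.09 in Hemgn-/- libraries.

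Cast, the inhibitor (chr13:74692368-74808810, minus strand), was at 29.6, 30.0 and 34.9 FPKM in WT and at 32.7, 30.8 and 33.1 FPKM in Hemgn-/- libraries. All Hemgn-/- values lay within the WT range, on 8025 to 11098 fragments a library. The means were 31.5 ± 2.98 and 32.2 ± 1.21 FPKM (SD, n = 3 each), and the log2 difference of 0.036 (standard error 0.090) was −0.065 after median-ratio scaling. Cast exceeded Capn1 by 9.34, 9.56 and 11.7 times in WT libraries, whereas the ratio was 1.16, 0.986 and 1.12 in Hemgn-/- libraries. Against the sum of Capn1 and Capn2, Cast stood at 3.14, 2.47 and 3.30 in WT and at 0.828, 0.760 and 0.890 in Hemgn-/- libraries. These are ratios of RNA levels per length, so where they stand relative to 1 depends on the gene lengths used. By fragments, Cast had 10295, 9260 and 10972 in Hemgn-/- libraries, against 2579, 2738 and 2845 of Capn1. Protein was not measured here.

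The non-classical Capn7, a calpain that binds ESCRT proteins (chr14:31336638-31371986, plus strand), was at 8.92, 7.35 and 8.11 FPKM in WT and at 8.17, 7.01 and 7.64 FPKM in Hemgn-/- libraries. The groups overlapped, with a log2 difference of −0.083 (standard error 0.11). Capn10 (chr1:92934376-92947941, plus strand), known from human studies of diabetes risk, was at 5.09, 6.00 and 2.63 FPKM in WT and at 4.80, 4.18 and 5.57 FPKM in Hemgn-/- libraries. WT replicate 3 was the lowest of the 6, and the log2 difference of 0.12 (standard error 0.23) was −0.17 without it. Neither of these calpains showed the separation seen for Capn1.

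**Figure D1:**
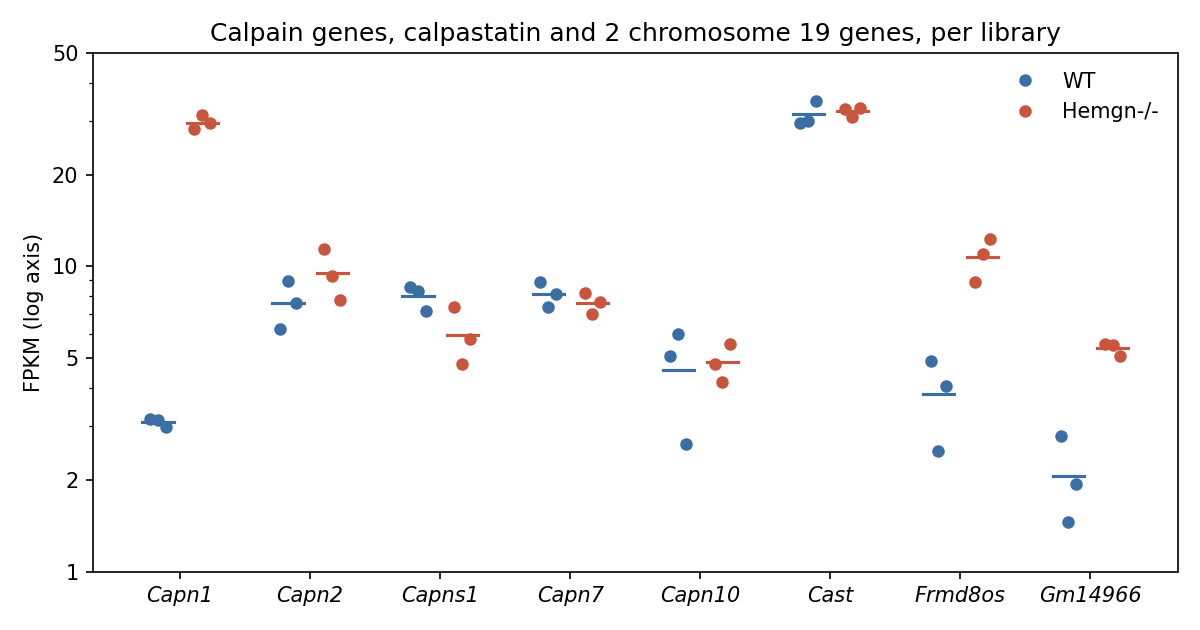
FPKM (log axis) of the 8 genes in each library, with WT and Hemgn-/- libraries in separate colours and a line at each group's mean. Capn1, Frmd8os and Gm14966 have no overlap between the genotypes, while Capn2, Capns1, Capn7, Capn10 and Cast overlap.

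The antisense gene Frmd8os (ENSMUSG00000043488, chr19:5845623-5851388, plus strand) lies 137 kb from Capn1, on the side beyond its 3′ end. It was at 4.90, 2.49 and 4.07 FPKM in WT and at 8.87, 11.0 and 12.3 FPKM in Hemgn-/- libraries. Every Hemgn-/- library was above every WT library, though on 39 to 217 fragments only. The means were 3.82 ± 1.22 and 10.7 ± 1.72 FPKM (SD, n = 3 each), a ratio of 2.80 and a log2 difference of 1.30 (standard error 0.20). Of its exon bases 388 (63.4%) are shared with Frmd8 on the opposite strand, where its reads and those of Frmd8 cannot be told apart without strand. Frmd8 itself averaged 31.0 ± 1.25 FPKM in WT cells and 34.3 ± 1.07 FPKM without Hemgn (SD, n = 3 each). Its log2 difference was 0.14, with an adjusted p of 0.338 from limma. The Frmd8 groups did not overlap, with Hemgn-/- libraries higher, as held for 19.2% of all genes tested.

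Gm14966 (ENSMUSG00000079467, chr19:6355522-6363759, minus strand) lies 340 kb from Capn1 on the side of its start site. It was at 2.79, 1.46 and 1.93 FPKM in WT and at 5.59, 5.53 and 5.09 FPKM in Hemgn-/- libraries. The Hemgn-/- values stood close together above all WT values, on 116 to 123 fragments against 30 to 53. The means were 2.06 ± 0.674 and 5.40 ± 0.271 FPKM (SD, n = 3 each), a ratio of 2.62 and a log2 difference of 1.09 (standard error 0.17). Its exons overlap those of Map4k2 (11.7% of its bases) and Sf1 (8.73%) on the opposite strand. Map4k2 differed by 0.19 (adjusted p = 0.397, limma) and Sf1 by 0.25 (adjusted p = 0.162, limma) on the log2 scale.

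The groups did not overlap for 3 of the 8 members (Capn1, Frmd8os and Gm14966), all higher in Hemgn-/- HSPCs. Over all genes tested this held for 27.4%, 19.2% higher and 8.18% lower. The contrast itself chose the members, so nothing is read from their count. Across the 8 members the median log2 difference was 0.20.

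In WT HSPCs the order of mean levels per length ran from Cast to Capn7, Capns1, Capn2, Capn10, Frmd8os, Capn1 and Gm14966. Cast was separate from the rest, Capn7, Capns1 and Capn2 overlapped as neighbours, as did Capn10, Frmd8os and Capn1, and Gm14966 lay below. In Hemgn-/- HSPCs Cast and Capn1 led with overlapping ranges, and Frmd8os, Capn2, Capn7, Capns1, Gm14966 and Capn10 followed, each overlapping the next. Capn1 thus moved from the 7th to the 2nd place.

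The 12 genes for catalytic calpain subunits together reached 28.3, 29.9 and 25.7 FPKM in WT and 56.7, 56.8 and 55.0 FPKM in Hemgn-/- libraries. Capn1 made up 11.2%, 10.5% and 11.6% of this sum in WT and 49.6%, 55.1% and 53.5% in Hemgn-/- libraries. Without Capn1 the sum was 25.2, 26.8 and 22.7 FPKM in WT and 28.6, 25.5 and 25.6 FPKM in Hemgn-/- libraries, and these ranges overlapped. The higher calpain sum in Hemgn-/- HSPCs was therefore carried by Capn1.

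**Figure D2:**
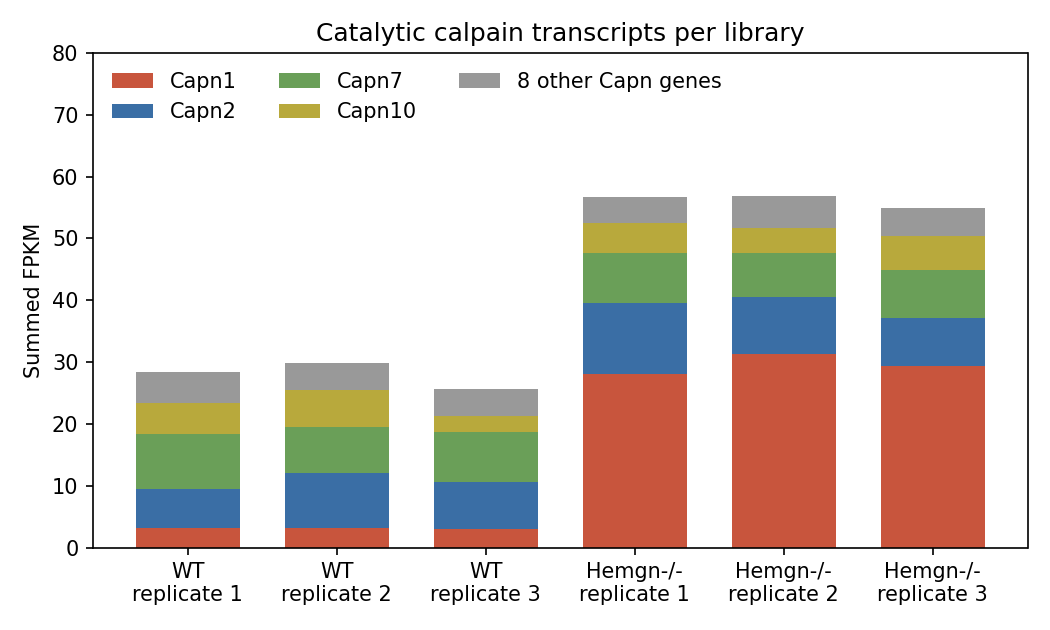
Summed FPKM of the catalytic calpain genes in each library, as stacked bars from 0 divided into Capn1, Capn2, Capn7, Capn10 and the 8 other Capn genes. The Capn1 segment grows from 10.5% to 11.6% of the bar in WT to 49.6% to 55.1% in Hemgn-/- libraries, while the other segments together reach 22.7 to 28.6 FPKM in the 6 libraries.

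The family has 9 further genes in the table. Capn5 averaged 2.07 ± 0.530 FPKM in WT cells and 2.17 ± 0.231 FPKM without Hemgn (SD, n = 3 each; log2 difference 0.059, adjusted p = 0.877 from limma). Capn15, a calpain with zinc fingers, was at 1.70 ± 0.410 and 2.22 ± 0.250 FPKM (SD, n = 3 each; log2 difference 0.26, adjusted p = 0.437 from limma). Of these 2 tested genes limma called 0, 0 had an unadjusted p under 0.05, and voom on the recovered fragments also called 0. Over all 13739 genes tested 6.46% were called, and 2944 had an unadjusted p under 0.05 from limma. Counts over 2 genes say little about the family. Capn3, Capn6, Capn9, Capn11, Capn12, Capn13 and Capns2 did not exceed 1 FPKM in any library and were not tested.

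Calpain activity depends on calcium, so genes for calcium entry, release, uptake and binding were counted next, 39 genes of which 30 were tested. None was called higher and 1 (3.33%) lower, where 4.37% of all genes were called higher and 2.09% lower. The directions depended on the method, since equal FPKM totals gave 3 higher and 0 lower calls and voom 3 higher and 2 lower. The median log2 difference was −0.040, against 0.087 for all genes, while groups did not overlap for 11 of the 30 in the higher direction and 3 in the lower (19.2% and 8.18% of all genes). The gene called was Mcu, the pore of the mitochondrial calcium uniporter, at 19.1, 22.6 and 21.6 FPKM in WT and at 16.5, 15.8 and 14.4 FPKM in Hemgn-/- libraries (log2 difference −0.41, standard error 0.099, adjusted p = 0.0439 from limma). That call ended when any 1 of the 6 libraries was left out, with adjusted p from 0.0190 to 0.162 over all alternatives. Among the highest genes of the list, Calm2, which encodes the calcium sensor calmodulin, averaged 172 FPKM in WT cells and 150 FPKM without Hemgn (log2 difference −0.19, adjusted p = 0.332, limma). Calr, a calcium-binding chaperone of the endoplasmic reticulum, was at 113 and 108 FPKM (−0.048, adjusted p = 0.806, limma).

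Proteins known to be cut by calpains came from 48 genes, of which 42 were tested. Of these 3 (7.14%) were called higher and 0 lower, with a median log2 difference of 0.13, so the share called lay near that of all genes. Groups did not overlap for 14 of the 42 in the higher direction and for 1 in the lower direction, where 19.2% and 8.18% of all genes did so. With median-ratio scaling or quantile normalization 2 were called higher and 1 lower.
Nfkbia, the inhibitor that holds NF-kappaB in the cytosol, was at 529, 530 and 535 FPKM in WT and at 704, 714 and 674 FPKM in Hemgn-/- libraries (log2 difference 0.39, standard error 0.052, adjusted p = 0.0042 from limma). Ptpn6, the phosphatase SHP-1, was at 243, 251 and 242 FPKM and at 316, 312 and 340 FPKM (log2 difference 0.39, standard error 0.060, adjusted p = 0.0074 from limma). Both calls ended only without the mean-variance trend, at adjusted p = 0.0796 for Nfkbia and 0.0870 for Ptpn6. Ptk2b, a calcium-responsive adhesion kinase, was at 29.3, 27.1 and 24.3 FPKM and at 33.7, 36.5 and 39.6 FPKM (log2 difference 0.43, standard error 0.099, adjusted p = 0.0382 from limma). Its adjusted p ran from 0.0135 to 0.151 over the alternatives, and the call ended in 10 of 15, among them the fits that left out any library other than Hemgn-/- replicate 1 (0.0560 to 0.151).
Of the 39 substrates that did not pass the test, talin (Tln1) had a log2 difference of 0.20 (adjusted p = 0.287, limma), the actin cross-linker filamin (Flna) −0.072 (adjusted p = 0.593), and the integrin chain Itgb2, the highest gene of the list with means of 685 and 653 FPKM in the WT and Hemgn-/- groups, −0.070 (adjusted p = 0.534). Capg, an actin-capping protein, was at 301 and 300 FPKM (−0.0031, adjusted p = 0.986, limma).

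**Figure D3:**
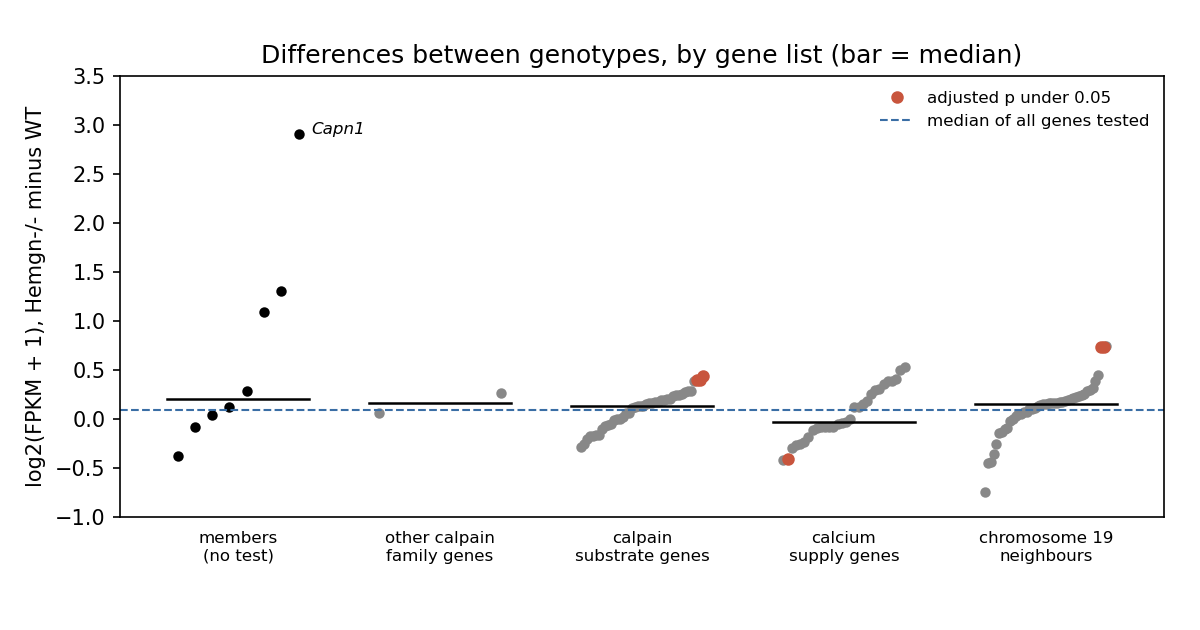
Difference of each gene (Hemgn-/- minus WT, log2(FPKM + 1) scale), with 1 point per gene for the 8 members, the further calpain family genes, the substrate genes, the calcium genes and the chromosome 19 neighbours, short bars at each list's median, red points for genes called outside the members and a dashed line at the median of all genes tested (0.087). Capn1 stands alone at 2.90, and the genes of the other lists lie between −0.75 and 0.75.

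Around Capn1, 58 genes other than the 8 members lie within 500 kb, and 45 were tested. Of these 2 (4.44%) were called higher and 0 lower, near the 4.37% and 2.09% of all genes, with a median log2 difference of 0.15. Cdc42ep2, an effector of the GTPase Cdc42, was at 25.4, 21.6 and 21.2 FPKM in WT and at 37.9, 44.3 and 33.5 FPKM in Hemgn-/- libraries (log2 difference 0.73, standard error 0.12, adjusted p = 0.0094 from limma). It lies 63.7 kb from Capn1, and its call ended only without the trend, at adjusted p = 0.0505. The processed pseudogene Gm8034 is the nearest tested gene on the side of the start site, 28.8 kb away, and was at 1.92, 2.96 and 1.91 FPKM and at 4.69, 3.76 and 4.72 FPKM, on 6 to 18 fragments (log2 difference 0.73, standard error 0.17, adjusted p = 0.0365 from limma). Its call ended in 11 of 15 alternatives, with adjusted p from 0.0192 to 0.426, including when any library other than WT replicate 2 was left out (0.0625 to 0.135). On the other side the nearest was Slc22a20, 2.40 kb away, which averaged 2.75 ± 0.0478 FPKM in WT cells and 2.52 ± 0.429 FPKM without Hemgn (SD, n = 3 each; log2 difference −0.098, adjusted p = 0.738 from limma).
Between Capn1 and Frmd8os lay 6 tested genes in whole or in part, of which 1 was called (Cdc42ep2), with a median log2 difference of 0.068. They include Frmd8, which overlaps Frmd8os. Between Capn1 and Gm14966 lay 19 in whole or in part, of which 1 was called (Gm8034), with a median of 0.16. These include Map4k2, which overlaps Gm14966.

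**Figure D4:**
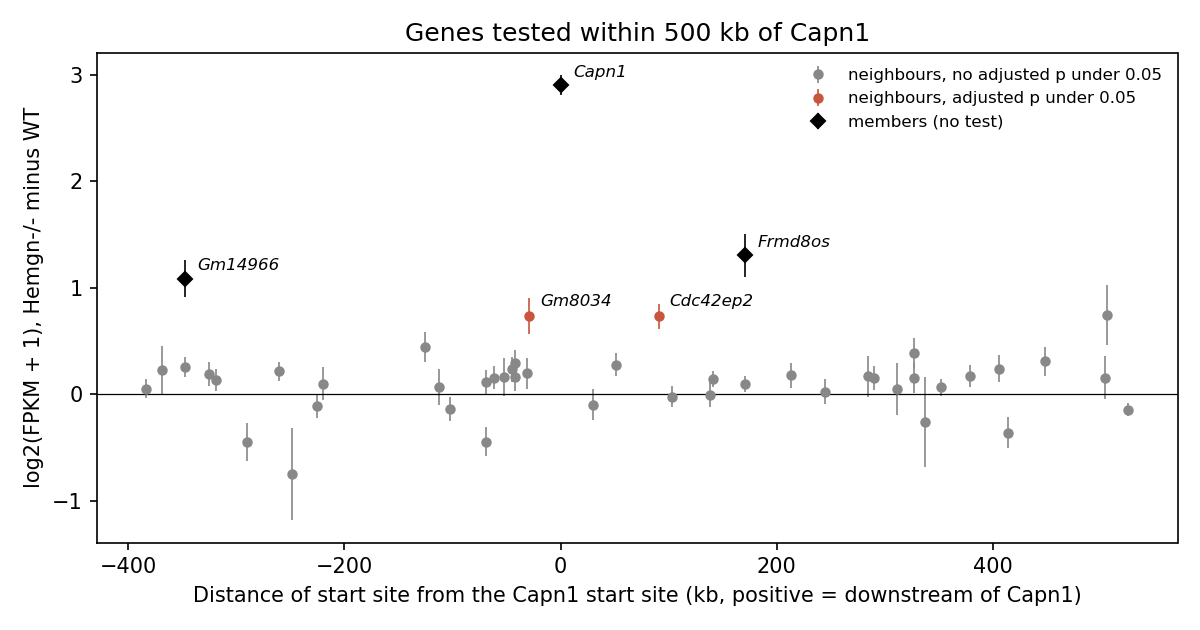
Difference (Hemgn-/- minus WT, log2(FPKM + 1) scale, bars are standard errors) of tested genes within 500 kb, against the distance of their start site from that of Capn1 in kb. The members Capn1 (2.90), Frmd8os (1.30) and Gm14966 (1.09) are diamonds, and the 45 tested neighbours lie from −0.75 to 0.75.

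The tested genes whose profile over the 6 libraries was nearest to that of Capn1, by root-mean-square distance of log2(FPKM + 1) taken from each gene's WT mean, were Tgif2-ps2 (0.054), Rpsa-ps10 (0.29), Gm26880 (0.38), Gm7665 (0.44) and Gm14719 (0.51). Of these 4 are annotated as pseudogenes and Gm26880 as a lincRNA, each on a different chromosome and none on chromosome 19. Tgif2-ps2 is listed at 0 throughout the WT group, and its Hemgn-/- values were 6.66, 7.20 and 6.47 FPKM. Rpsa-ps10 was at 0.955, 0.883 and 0.938 FPKM in WT and at 14.2, 22.7 and 15.6 FPKM in Hemgn-/- libraries. Tgif2-ps2, Rpsa-ps10 and Gm26880 were below 1 FPKM in every WT library and passed the filter through Hemgn-/- libraries only. The added 1 shapes the distances at such levels. Ratios of means were 18.9 for Rpsa-ps10 and 5.92 for Gm7665, against 9.58 for Capn1. Reads of a processed pseudogene can come from its parent gene, and the assignment was not tested.

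Hemgn was lower in Hemgn-/- HSPCs by 1.37 on the log2 scale (adjusted p = 0.0114, limma). Its adjusted p from limma was 0.0503 without WT replicate 3 and 0.0613 with all genes above 0 tested. Hemgn had 335, 190 and 326 fragments in WT and 52, 60 and 116 in Hemgn-/- libraries. The paper describes the allele as a small deletion with a premature stop codon, which need not remove the RNA. Erythroid transcripts were lower as well, so the Hemgn level alone does not check the labels. Kit, the gene of the sort marker c-Kit, was between 5.50 and 7.24 FPKM in the 6 libraries. All 10 HSPC markers were detected, at a summed 36.7 to 42.6 FPKM in WT and 44.3 to 53.2 FPKM in Hemgn-/- libraries (1 higher). Several other lists had higher sums, the neutrophil and B cell lists most, while the megakaryocyte and endothelial sums were lower. Fewer cells of a type and less RNA per cell cannot be told apart in bulk RNA. The 6 erythroid markers summed to 449 to 534 FPKM in WT and 27.3 to 42.2 FPKM in Hemgn-/- libraries (3 of 6 lower), and the 8 neutrophil markers to 63985 to 69923 and 40690 to 42929 FPKM (5 of 8 lower). The B cell markers summed to 1157 to 1216 and 1378 to 1550 FPKM (3 of 6 higher), the T and NK cell markers to 96.7 to 108 and 113 to 134 FPKM (2 of 6 higher), and the plasmacytoid dendritic cell markers to 70.9 to 81.9 and 85.7 to 114 FPKM (1 of 4 higher). Eosinophil, basophil and mast cell markers summed to 687 to 800 and 530 to 563 FPKM (2 of 5 lower), monocyte and macrophage markers to 392 to 452 and 338 to 425 FPKM (2 of 6 higher), megakaryocyte and platelet markers to 13.0 to 15.3 and 14.1 to 16.5 FPKM (0 of 5), and endothelial markers to 16.1 to 17.2 and 17.3 to 20.8 FPKM (0 of 4). No marker of these lists was at 0 in all libraries. Several of these lists differed with genotype, as Capn1 did, and their part in the calpain values was not tested.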

How the data were processed

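Total RNA of sorted donor HSPCs was sequenced from 3 WT and 3 Hemgn-/- replicates (Smart-Seq2 per the methods, TruSeq per the labels), and groups follow the genotype in the labels. The authors deposited FPKM values per gene. The submitters' processing notes name Bowtie2 2.2.3, HISAT2 2.1.0, TopHat2, HTSeq 0.6.0 and GRCm38, with no roles. The annotation and the strand setting are not given in the sources used here. Symbols, positions and exon lengths came from GENCODE M21, which held 24921 of the 24965 identifiers. No column was left unmapped (0 columns).

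Whole fragments were recovered from the FPKM steps: of 13472 genes on which no library had over 100 fragments, 95.7% gave whole numbers within 0.05 in all 6. Fragments of amplified cDNA are not independent molecules. FPKM values were taken as log2(FPKM + 1), filtered at FPKM above 1 in at least 1 library, and compared with limma 3.58.1 in R 4.3.3 (eBayes with trend, all 6 libraries, no covariate). Tests are two-sided. P-values set the difference between the groups against the spread between these libraries, which eBayes moderates across genes. An exact permutation test of 3 against 3 cannot go below p = 0.1. In simulated data with 12682 genes tested, 107 of 193 genes changed 2-fold were called, and 8 unchanged genes. The simulation gave all genes the same dispersion, so these rates need not hold for the measured genes. Deviations of same-numbered libraries correlated at −0.043 to 0.011 (3 pairs), so the numbers were not taken to pair libraries.

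The members, lists and tests were chosen with earlier results of these data known. Named are the members, Hemgn, calpain family genes passing the filter, called genes and the 3 highest genes of the substrate and calcium lists, called and nearest neighbours within 500 kb, and the 5 genes most like Capn1. A gene that this rule names is not reported here. Genes that share exon bases with a member, the substrates Tln1 and Flna, and Tpm3-rs7 were named in addition, after their values were seen. Cell types were checked with marker lists. Alternatives were a pseudocount of 0.1, all genes above 0, a mean FPKM of at least 1, median-ratio scaling, equal FPKM totals (TPM), quantile normalization, eBayes without trend, the replicate number as a block, voom on recovered fragments, each library left out, and a window of 1000 kb. The other steps ran in Python 3.11.15 (numpy 2.4.6; pandas 2.3.3), and the plots in matplotlib 3.10.9.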

Additional observations from a re-analysis of the deposited data

How the results depend on the processing

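The log2 difference of Capn1 (2.90) was 3.22 with a pseudocount of 0.1, 2.81 with median-ratio scaling, 3.20 with equal FPKM totals, 2.82 with quantile normalization and 3.26 with voom, and 2.86 to 2.94 with each library left out. Gm14966 (1.09) was at 1.39, 1.36 and 1.43 with the pseudocount, equal totals and voom, and at 0.94 to 1.25 with a library left out, and Frmd8os (1.30) at 1.09 to 1.47. Cast was at −0.065 with median-ratio scaling and at −0.0062 to 0.11 with a library left out. Leaving out a library gave 0.15 to 0.40 for Capn2, −0.52 to −0.26 for Capns1, −0.15 to −0.021 for Capn7 and −0.17 to 0.31 for Capn10. Over the whole table the 887 calls became 466 with all genes above 0, 390 without the trend and 373 to 688 with a library left out. The 3 substrate calls became 6 with equal totals, 0 without the trend, 5 with voom and 2 to 4 with a library left out. The 1 calcium call, lower in Hemgn-/- HSPCs, became 2 lower with median-ratio scaling, 3 with equal totals, all higher, 5 with voom (3 higher and 2 lower), and 0 with all genes above 0, without the trend and with any library left out. The 2 neighbour calls became 1 with all genes above 0, median-ratio scaling, quantile normalization and voom, 0 without the trend, and 1 to 2 with a library left out. In the window of 1000 kb 5 genes were called (3 higher and 2 lower). That window holds more tested genes and its share called is not given, so this count is not read as more calls around Capn1. The further calpain genes had 0 calls throughout. The causes were not tested. Depth limits the antisense genes and Gm8034 most, with 6 fragments in the lowest library of Gm8034.

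With the replicate number as a block, 636 genes were called over the whole table, 2 substrates, 0 calcium genes and 1 neighbour, and the members' log2 differences stayed as they were because every number occurs in both groups. Ptk2b, Mcu and Gm8034 were not called with the block. The numbers were not shown to pair libraries, so these losses are not read as weaker effects.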
